A study of Mus musculus with 8 samples.

Results

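The genes described here are 31 that encode the mitochondrial tricarboxylic acid (TCA) cycle, the pyruvate dehydrogenase complex that feeds it, and the steps next to both: 13 genes for cycle enzymes, 4 for subunits of pyruvate dehydrogenase, 6 for its kinases and phosphatases, 5 for pyruvate import, pyruvate carboxylation and malic enzymes, and 3 for the malate-aspartate shuttle. They were chosen by name, and each was read from the brightest array probe that matched it. A probe counted as measured when it was well above its local background in at least 4 of the 8 samples. That held for 30 of the 31 genes, out of 13711 named genes measured. Pdpr, the regulatory subunit of pyruvate dehydrogenase phosphatase, was well above background in 1 of 8 samples and is not described further. Of the 30, 29 were well above background in all 8 samples and Pdk3 in 7, and none was saturated.

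RNA was compared between hearts of 4 mice homozygous for a Pus1 mutation and 4 wild-type mice, labelled as separate individuals. Mice of both genotypes had a C57BL/6J background, with 5 backcross generations before the experiment, and their age was 14 to 16 weeks. Per the labels, a frozen piece with parts of atrium and ventricle was used, and the altered allele is not described there. Each of 4 Agilent 2-colour arrays held the mutant and the wild-type heart of the same number, females on arrays 1 and 2 and males on arrays 3 and 4. The mutant carried the dye Cy5 on arrays 1 and 3 and Cy3 on arrays 2 and 4, so each sex had both dye orientations. Differences between genotypes are given as log2 ratios of mutant over wild type within an array, and levels as normalized log2 intensity per sample. A level depends on the probe as well as on the RNA, so levels are compared between samples and never between genes.

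Pus1 encodes a pseudouridine synthase that modifies transfer RNAs of both the cytosol and the mitochondria. In the TCA cycle, acetyl-CoA is joined to oxaloacetate and oxidised to carbon dioxide, which yields the reduced cofactors that drive the respiratory chain. Pyruvate dehydrogenase makes the acetyl-CoA from pyruvate and is switched off by phosphorylation, and cardiac muscle, which is dense in mitochondria, takes most of its acetyl-CoA from fatty acids and pyruvate. All enzymes described here are encoded in the nucleus and translated in the cytosol.

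The Pus1 transcript was lower in every mutant than in every wild type, with ratios of -2.15, -1.68, -1.69 and -1.88 on arrays 1 to 4. Its levels were 9.10 ± 0.15 in wild types and 7.25 ± 0.22 in mutants (SD, n = 4), and the mean ratio was -1.85 (SE 0.13, unadjusted p = 7.67e-05, adjusted p = 1.00, limma). The mean was -2.83 with processed signals, and its adjusted p lay between 0.00584 and 1.00 under the alternatives. Between 44.7% and 54.6% of probes were well above background per sample. All 8 genes listed as ventricular myocyte markers and 8 of 9 listed as atrial myocyte markers were measured. The atrial genes differed between pieces: Sln, the sarcolipin gene of atrial muscle, ranged from 6.39 in mutant 1 to 16.02 in mutant 2.

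No difference between mutant and wild type was detectable for any of the 30 genes with 4 arrays. After adjustment Pus1, lower in every mutant, did not pass the test either. With limma and Benjamini-Hochberg adjustment over 21823 features, 0 of the 30 passed at an adjusted p of 0.05, against 0 of all features (0%). At an unadjusted p under 0.05, 0 of the 30 passed, against 224 of all features (1.03%). The smallest unadjusted p was 0.121, for Pdp2, and every adjusted p was 1.00. The mean ratios ran from -0.23 for Pdp2 to 0.17 for Dld, 21 of them positive and 9 negative, with a median of 0.03 beside -0.01 over all features. The number of positive ratios was 13 of 30 without array 1, 25 without array 2, 19 without array 3 and 11 without array 4.

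The precision of these means sets what could be seen. The SD of a gene's 4 ratios had a median of 0.40 over the 30 genes, and the half-width of the 95% interval of the mean a median of 0.33. The intervals of the 30 genes together spanned -0.68 to 0.80 on the log2 scale. A mean ratio closer to 0 than a gene's half-width did not stand apart from 0 with 4 arrays, even before adjustment. The levels of mutants and wild types overlapped for all 30 genes, as they did for all but 0.744% of features measured on all 4 arrays. The ratio had the same sign on all 4 arrays for 2 genes, Pdp2 and Got2, against 4.89% of features.

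**Figure D1:**
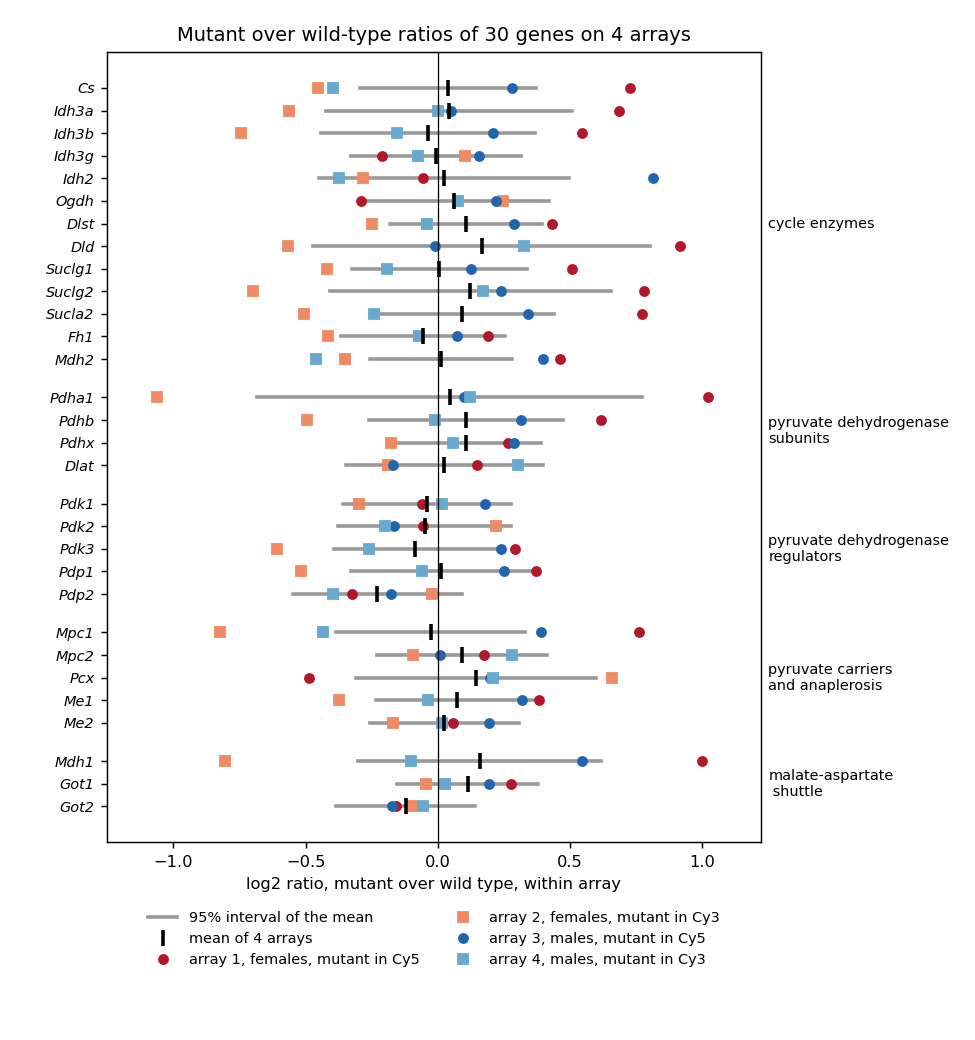
Log2 ratio of mutant over wild type for each of the 30 genes (rows, grouped by role) on each of the 4 arrays (points coloured by sex, circles for the mutant in Cy5 and squares for the mutant in Cy3), with the mean of the 4 arrays (black tick) and its 95% interval (grey line). Every interval crosses 0, and for 13 genes both circles lie to the right of 0 and both squares to the left of it.

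Among the 13 genes for enzymes of the cycle, 10 had a positive mean ratio and 3 a negative one, with a median of 0.04, and none passed the test. Cs encodes citrate synthase, which joins acetyl-CoA to oxaloacetate. Its levels were 16.17, 16.53, 16.57 and 16.71 in wild types 1 to 4 and 16.90, 16.08, 16.85 and 16.31 in mutants 1 to 4. The highest and the lowest value were both from mutant females, and the groups overlapped. The ratios of 0.72, -0.45, 0.28 and -0.40 averaged 0.04 (SE 0.12).

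Idh3a, Idh3b and Idh3g encode the subunits of the NAD-dependent isocitrate dehydrogenase of the cycle. Idh3a had ratios of 0.69, -0.56, 0.05 and 0.00 and Idh3b of 0.54, -0.74, 0.21 and -0.15, with means of 0.04 (SE 0.17) and -0.04 (SE 0.15). For both, the ratios of the female pairs were the largest in size and of opposite sign. Idh3g differed little on any array, at -0.21, 0.10, 0.16 and -0.08 (mean -0.01, SE 0.12). Its mean ratio had the opposite sign, at 0.02 to 0.09, with processed signals and with median centring, and that of Idh3b was 0.07 with median centring.

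Idh2, the NADP-dependent isocitrate dehydrogenase of mitochondria, stood at 17.48, 17.46, 16.86 and 17.18 in wild types 1 to 4 and at 17.42, 17.17, 17.67 and 16.80 in mutants 1 to 4. Here male pairs set the range, with wild type 3 and mutant 4 lowest and mutant 3 highest, and the groups overlapped. The ratios were -0.06, -0.28, 0.81 and -0.38, with a mean of 0.02 (SE 0.18).

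The oxoglutarate dehydrogenase complex is built from Ogdh, its dehydrogenase, Dlst, the succinyltransferase core, and Dld, the lipoamide dehydrogenase that it shares with pyruvate dehydrogenase. Dlst was at 14.32, 14.22, 14.52 and 14.43 in wild types 1 to 4 and at 14.75, 13.98, 14.81 and 14.39 in mutants 1 to 4. The 4 wild types lay within the range of the mutants, of which mutants 1 and 3 were highest and mutant 2 lowest. The ratios of 0.43, -0.25, 0.29 and -0.04 averaged 0.11 (SE 0.11). Dld had the largest positive mean of the 30 genes, 0.17 (SE 0.24), from ratios of 0.91, -0.57, -0.01 and 0.33. Its mean was -0.07 without array 1, 0.39 without array 2, 0.40 without array 3 and -0.06 without array 4. Ogdh ran the other way in females, with ratios of -0.29 and 0.25, and was at 0.22 and 0.08 in males (mean 0.06, SE 0.13).

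Succinyl-CoA ligase, the step of the cycle that makes ATP or GTP directly, is encoded by the shared subunit gene Suclg1, the GTP-specific Suclg2 and the ATP-specific Sucla2. The ratios were 0.51, -0.42, 0.13 and -0.19 for Suclg1, 0.78, -0.70, 0.24 and 0.17 for Suclg2, and 0.77, -0.50, 0.34 and -0.24 for Sucla2. All 3 subunits had the sequence of positive, negative and positive ratios on arrays 1 to 3, and their means were 0.01 (SE 0.12), 0.12 (SE 0.20) and 0.09 (SE 0.13). The mean of Suclg1 was -0.02 with scale normalization. Fh1, the fumarase gene, was at 0.19, -0.41, 0.07 and -0.07, with a mean of -0.06 (SE 0.12) that was 0.05 with median centring.

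Mdh2 encodes the mitochondrial malate dehydrogenase that closes the cycle. Its levels were 17.19, 17.41, 17.30 and 17.65 in wild types 1 to 4 and 17.65, 17.06, 17.70 and 17.19 in mutants 1 to 4. Mutants 1 and 3 and wild type 4 were highest, and the groups overlapped almost fully. The ratios of 0.46, -0.35, 0.40 and -0.46 cancelled to a mean of 0.01 (SE 0.10), which was -0.02 with scale normalization.

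All 4 genes for pyruvate dehydrogenase subunits had a positive mean ratio, with a median of 0.08, and none passed the test. Pdhb encodes the beta subunit of the dehydrogenase component. It stood at 15.12, 15.43, 15.48 and 15.51 in wild types 1 to 4 and at 15.74, 14.94, 15.80 and 15.50 in mutants 1 to 4, so that mutants 1 and 3 were highest, mutant 2 was lowest and the groups overlapped. The ratios of 0.62, -0.49, 0.32 and -0.01 averaged 0.11 (SE 0.14).

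Pdha1, the X-linked alpha subunit, had the widest spread of ratios of the 30 genes and was singled out after its values were seen. Its levels were 12.41, 13.03, 13.06 and 12.96 in wild types 1 to 4 and 13.43, 11.97, 13.15 and 13.08 in mutants 1 to 4. The extremes were again mutant females 1 and 2, and the males of both genotypes lay between 12.96 and 13.15. The ratios were 1.02, -1.06, 0.10 and 0.12 (SD 0.85), with a mean of 0.04 (SE 0.27). That mean was -0.19 without array 1, 0.34 without array 2 and -0.25 without array 4.

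Pdhx, which holds the lipoamide dehydrogenase in the complex, was at 11.88, 11.88, 12.22 and 12.27 in wild types 1 to 4 and at 12.14, 11.70, 12.51 and 12.33 in mutants 1 to 4. The 4 males, at 12.22 and above, stood above the 4 females, at 12.14 and below, and the genotypes overlapped. Its ratios were 0.26, -0.18, 0.29 and 0.06 (mean 0.11, SE 0.11). Dlat, the acetyltransferase core, had ratios of 0.15, -0.19, -0.17 and 0.30 (mean 0.02, SE 0.14), and its mean was -0.01 with processed signals.

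**Figure D2:**
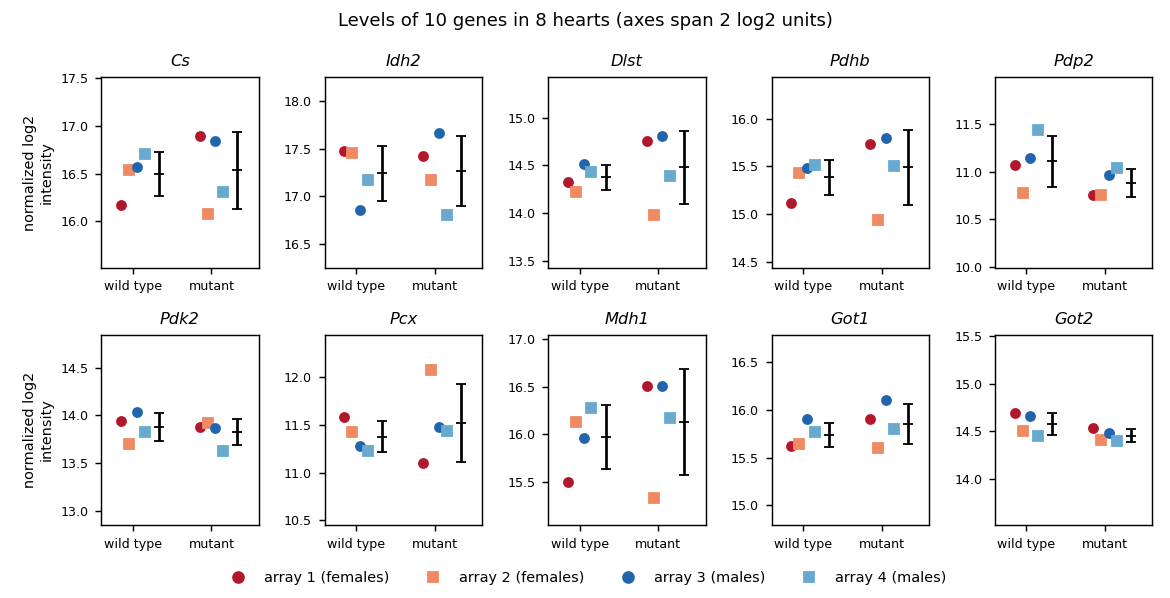
Normalized log2 intensity of 10 of the genes in each of the 8 hearts (points by array, wild types on the left and mutants on the right of each panel), with the mean and SD of each genotype (n = 4) beside the points. All vertical axes span the same log2 range, and in every panel the mutants and wild types overlap.

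The 5 measured regulators of pyruvate dehydrogenase had a median ratio of -0.05, 1 positive and 4 negative, and none passed the test. With median centring, the means of Pdk1 and Pdk2 were positive, at 0.11 and 0.07. Pdp2 encodes a catalytic subunit of pyruvate dehydrogenase phosphatase, which removes the inhibitory phosphates. It stood at 11.07, 10.77, 11.14 and 11.44 in wild types 1 to 4 and at 10.75, 10.75, 10.97 and 11.04 in mutants 1 to 4. The mutant was the lower sample of each pair, wild type 2 lay among the mutants, and the groups overlapped. The ratios of -0.32, -0.02, -0.18 and -0.40 gave the lowest mean of the 30 genes, -0.23 (SE 0.12, 95% interval -0.55 to 0.09, adjusted p = 1.00). The mean was negative under every alternative run, from -0.32 to -0.08.

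The other phosphatase gene, Pdp1, had ratios of 0.37, -0.52, 0.25 and -0.06 and a mean of 0.01 (SE 0.13) that was -0.10 without array 4. The kinases Pdk1, Pdk2 and Pdk3 inactivate the complex by phosphorylating it. Pdk2 was at 13.94, 13.70, 14.04 and 13.83 in wild types 1 to 4 and at 13.88, 13.92, 13.87 and 13.62 in mutants 1 to 4. Mutant 4 was lowest and wild type 3 highest, and the groups overlapped. Its ratios of -0.06, 0.22, -0.17 and -0.20 averaged -0.05 (SE 0.12).

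Pdk1 was at 9.98, 9.76, 9.83 and 9.86 in wild types 1 to 4 and at 9.92, 9.46, 10.01 and 9.87 in mutants 1 to 4. Mutant 2 stood lowest and the other 7 hearts lay between 9.76 and 10.01. The ratios were -0.06, -0.30, 0.18 and 0.01 (mean -0.04, SE 0.12). Pdk3, well above background in 7 of 8 samples, had ratios of 0.29, -0.61, 0.24 and -0.26 (mean -0.08, SE 0.11), and its mean was 0.07 with processed signals and 0.10 with the authors' series matrix.

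Of the 5 genes for pyruvate carriers, pyruvate carboxylase and malic enzymes, 4 had a positive mean ratio and 1 a negative one, with a median of 0.07, and none passed the test. Mpc1 and Mpc2 form the carrier that brings pyruvate into the mitochondrion. Mpc1 stood at 15.27, 15.94, 15.60 and 15.89 in wild types 1 to 4 and at 16.03, 15.11, 15.99 and 15.46 in mutants 1 to 4. Mutants 1 and 3 were highest and mutant 2 lowest, and the groups overlapped. The ratios of 0.76, -0.82, 0.39 and -0.43 averaged -0.03 (SE 0.13), and the sign of this mean turned with processed signals (0.00) and with median centring (0.07). Mpc2 had ratios of 0.17, -0.09, 0.01 and 0.28 (mean 0.09, SE 0.12), with the signs of Mpc1 on arrays 1 to 3, and the difference between these genes was not tested.

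Pcx encodes pyruvate carboxylase, which replenishes oxaloacetate. Its levels were 11.58, 11.42, 11.28 and 11.23 in wild types 1 to 4 and 11.10, 12.08, 11.48 and 11.44 in mutants 1 to 4. Mutant 2 was highest and mutant 1 lowest, and the groups overlapped. The ratios of -0.49, 0.66, 0.20 and 0.21 averaged 0.14 (SE 0.17), and the mean was 0.32 without array 1 and -0.03 without array 3. The malic enzymes convert malate to pyruvate, Me1 in the cytosol and Me2 in mitochondria. Me1 had ratios of 0.38, -0.38, 0.32 and -0.04 (mean 0.07, SE 0.11) and Me2 of 0.06, -0.17, 0.19 and 0.02 (mean 0.03, SE 0.11).

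The malate-aspartate shuttle carries reducing equivalents from the cytosol into the mitochondrion. Of its 3 genes, 2 had a positive mean and 1 a negative one, with a median of 0.11, and none passed the test. Mdh1, the cytosolic malate dehydrogenase, stood at 15.50, 16.13, 15.96 and 16.27 in wild types 1 to 4 and at 16.50, 15.33, 16.51 and 16.17 in mutants 1 to 4. Mutants 1 and 3 were highest and mutant 2 was lowest, with all wild types between them. The ratios of 1.00, -0.80, 0.55 and -0.10 averaged 0.16 (SE 0.17), and the mean was 0.33 without array 2 and -0.02 without array 4.

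The aspartate aminotransferases of the shuttle had narrow spreads and means of opposite sign. Got1, the cytosolic form, was at 15.63, 15.64, 15.91 and 15.77 in wild types 1 to 4 and at 15.90, 15.60, 16.10 and 15.80 in mutants 1 to 4. Mutant 3 was highest and mutant 2 lowest, and the groups overlapped. The ratios of 0.28, -0.05, 0.19 and 0.03 averaged 0.11 (SE 0.10).

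Got2, the mitochondrial form, was at 14.69, 14.50, 14.66 and 14.45 in wild types 1 to 4 and at 14.53, 14.41, 14.48 and 14.40 in mutants 1 to 4. The mutant was the lower sample of each pair, and the groups overlapped because wild types 2 and 4 lay within the range of the mutants. Its ratios of -0.16, -0.10, -0.17 and -0.06 had the smallest spread of the 30 genes (SD 0.06), with a mean of -0.12 (SE 0.10, 95% interval -0.39 to 0.14, unadjusted p = 0.278, adjusted p = 1.00). The SE is larger than these 4 ratios alone would give because limma moderates it towards the spread of all features. The mean of Got2 stayed negative under every alternative run but was -0.01 with median centring and -0.05 with the authors' series matrix.

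The 30 genes moved more between arrays than between genotypes. Their median ratio was 0.33 on array 1, -0.36 on array 2, 0.20 on array 3 and -0.05 on array 4, whereas that of all features was 0.04, 0.02, -0.03 and -0.01. A positive ratio was found for 22 of the 30 genes on array 1, 4 on array 2, 25 on array 3 and 12 on array 4, against 53.6%, 52.3%, 46.5% and 48.4% of features. The sign of the median followed the dye of the mutant, positive with Cy5 on arrays 1 and 3 and negative with Cy3 on arrays 2 and 4. Turned to Cy5 over Cy3, the medians of the 30 genes were 0.33 and 0.36 in the pairs of females and 0.20 and 0.05 in those of males.

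The dye coefficient, which the fit estimates for each feature beside the genotype, put this in numbers. It was above 0 for 22 of the 30 genes, against 46.8% of features, with a median of 0.28 beside -0.02 over all features. Such a median was not particular to the 30 genes. It was 0.25 for the 8 genes listed as ventricular myocyte markers and 0.37 for 4 succinate dehydrogenase assembly genes. It was 0.04 over 47 further pathway genes, which include those 4, and -0.66 for the 8 measured atrial markers. By brightest probe, the Cy5 sample was the brighter one on all 4 arrays for 13 of the 30 genes, against 11.5% of features. The Cy3 sample was brighter on all 4 arrays for none of the 30. At an unadjusted p under 0.05, 7 of the 30 genes passed, against 9.87% of features: Cs, Idh3b, Sucla2, Mdh2, Pdk3, Mpc1 and Mdh1. After adjustment 0 passed, as did 0 of all features (0%). The coefficient ran from -0.29 (SE 0.17) for Pcx to 0.61 (SE 0.17) for Mdh1, with 0.60 (SE 0.13) for Mpc1 and 0.42 (SE 0.10) for Mdh2. Of the 13 genes, Pdhb, Pdp1, Mpc1 and Me1 had further probes, and each had a probe without Cy5 brighter on all 4 arrays. On arrays 3 and 4 the ratios of a second Mpc1 probe had the opposite signs to those of the probe used. On array 4 a further probe each of Pdhb, Pdp1 and Me1 had a positive ratio, at 0.14, 0.62 and 0.09. Another Me1 probe had ratios of -0.48, 0.09, -0.24 and 0.18, with Cy3 brighter on all 4 arrays. Another Pdp1 probe had Cy5 brighter on all 4. With median centring in place of loess, which moved the median of all features to 0.52, that of the 30 genes was 1.20.

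By role, the median dye coefficient was 0.32 for the cycle enzymes, 0.26 for the pyruvate dehydrogenase subunits, 0.12 for the shuttle and 0.10 each for the regulators and for the carriers and anaplerotic enzymes. The Cy5 samples were mutants 1 and 3 and wild types 2 and 4. Each heart was hybridised with a single dye, so a property of the dye and a property of those hearts cannot be told apart. Across the 30 genes, the ratios of array 1 and array 2 correlated at -0.87, against 0.03 over all 21823 features. Between the male arrays 3 and 4 the correlation was -0.38 for the 30 genes and 0.31 for all features. The other pairs of opposite dye orientation were less negative for the 30 genes than for all features, at -0.03 against -0.49 for arrays 1 and 4 and at -0.29 against -0.69 for arrays 2 and 3. Pairs of the same orientation correlated at 0.27 against -0.32 for arrays 1 and 3 and at 0.17 against -0.16 for arrays 2 and 4. These are descriptions across genes of the same 4 hybridisations, and genes are not independent replicates.

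**Figure D3:**
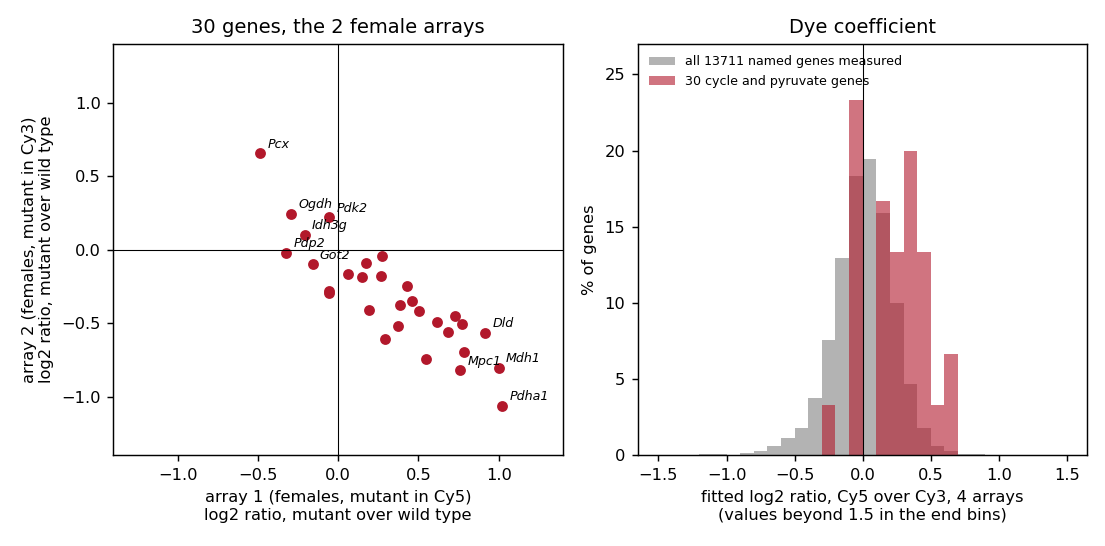
Left, log2 ratio of mutant over wild type on array 2 against that on array 1 for the 30 genes; right, the fitted log2 ratio of Cy5 over Cy3 as a percentage of the 30 genes (red) and of all 13711 named genes (grey). The 30 genes fall along a descending line from Pcx to Pdha1, and their dye coefficients extend from -0.29 to 0.61 with a median of 0.28.

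The promoters of the genes were searched for 3 short sites. Matches lying wholly before the start site are printed, and they were not chosen by the ratios. Promoter windows of 300 bases, 250 before and 50 after the start site, were matched from RefSeq (GRCm38.p6) for 28 of the 31 genes, with 38 windows in all. The windows were searched on both strands for CCGGAAG, a form of the ETS site, the site of the mitochondrial gene regulator NRF1 (GCGC, then A and any base, then GCGC), and TNAAGGTCA, the site of estrogen-related receptors. Mpc1, by its brightest probe only, and Sucla2 had ratios that alternated in sign over the 4 arrays, while Idh3g stayed within 0.21 of 0. The stretches below hold the match in capitals, 97 bases before the start site in Idh3g (chrX:73786970-73787026, minus strand), 218 bases before it in Mpc1 (chr17:8283537-8283593, plus strand) and 7 bases before it in Sucla2 (chr14:73552744-73552785, plus strand, the NRF1 letters read on the opposite strand).
Idh3g: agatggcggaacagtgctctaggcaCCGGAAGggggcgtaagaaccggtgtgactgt
Mpc1: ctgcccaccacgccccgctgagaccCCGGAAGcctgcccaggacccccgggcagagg
Sucla2: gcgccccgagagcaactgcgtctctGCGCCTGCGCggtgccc

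The ETS letters were in 4 of the 38 windows (10.5%), those of Dlst, Idh3b, Idh3g and Mpc1, against 8.86% of all 32851 promoter windows. Of these genes Dlst, Idh3b and Mpc1 had ratios that alternated in sign over the 4 arrays and Idh3g did not, and no relation of the letters to the ratios was tested. The NRF1 letters were in 2 (5.26%), those of Dld and Sucla2, against 4.6%. The letters of the estrogen-related receptor site were in 0 of 38, against 1.28%, which says only that these letters are not in these windows.

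The pieces of heart differed in makeup, and these values stand beside the pattern between arrays. In samples, the 30 genes deviated from their own means over the 8 hearts by a median of 0.15, -0.35, 0.24 and -0.01 in mutants 1 to 4 and of -0.17, -0.01, 0.06 and 0.05 in wild types 1 to 4. Mutant 2 was above the gene's mean for 3 of the 30 genes, and mutants 1 and 3 for 25 and 28. The 8 genes listed as ventricular myocyte markers deviated by 0.31, -0.38, 0.13 and 0.01 in mutants 1 to 4. In wild types 1 to 4 they deviated by -0.05, -0.08, -0.19 and 0.28. Whether these 8 genes are confined to ventricular myocytes was not tested, so their median does not measure the ventricular part of a piece. Myl2, a light chain gene among them, was at 18.07 in both mutant 2 and wild type 3. By these medians mutant 2 was the lowest and mutants 1 and 3 were above 0 for both the 30 genes and the 8 markers. Not all hearts matched: wild type 3 was at 0.06 for the 30 genes and -0.19 for the markers, and wild type 4 at 0.05 and 0.28.

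Atrial markers went the other way in mutant 2. The 8 measured atrial myocyte genes deviated by -0.99, 2.67, -1.37 and 1.30 in mutants 1 to 4 and by -0.76, 1.82, -1.89 and -0.90 in wild types 1 to 4, and their summed linear intensity ranged from 14329 in wild type 3 to 204261 in wild type 2 among the wild types and from 20099 in mutant 1 to 582075 in mutant 2 among the mutants. The 4 measured of 7 white adipocyte genes, Cidec, Retn, Cfd and Fabp4, deviated by -0.98, 2.50, -1.45 and 0.70 in mutants 1 to 4 and by -0.85, 1.76, -0.82 and -0.62 in wild types 1 to 4. Hearts 2 of both genotypes and mutant 4 were high in both lists. The defining adipocyte genes Adipoq and Plin1 were well above background in those 3 hearts and in no other, so they fell outside the filter, as did the brown adipocyte gene Ucp1 with the same 3 hearts, and Lep was well above background in none. Summed intensity of the 4 measured adipocyte genes ranged from 61600 to 81152 in wild types and from 52878 to 105063 in mutants. This sum is weighted towards the brightest probe, that of Fabp4, which lay between 15.67 in mutant 3 and 16.18 in mutant 4. Cfd ranged from 7.42 in wild type 3 to 14.82 in mutant 2.

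Red cell genes differed as well. The 6 measured of 8 erythroid genes, globins among them, deviated by 1.61, -0.98, -0.89 and 0.15 in mutants 1 to 4 and by -0.79, 1.13, -0.04 and -0.33 in wild types 1 to 4, and their summed intensity ranged from 273090 to 1281449 in wild types and from 226253 to 1365220 in mutants. The high samples on arrays 1 and 2, mutant 1 and wild type 2, were the Cy5 samples. On arrays 3 and 4 the Cy5 samples, mutant 3 and wild type 4, had the lower median deviation of the pair. The part of these differences in makeup in the ratios of the 30 genes was not tested. In RNA from whole tissue, fewer cells of a type and less RNA per cell cannot be told apart.

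**Figure D4:**
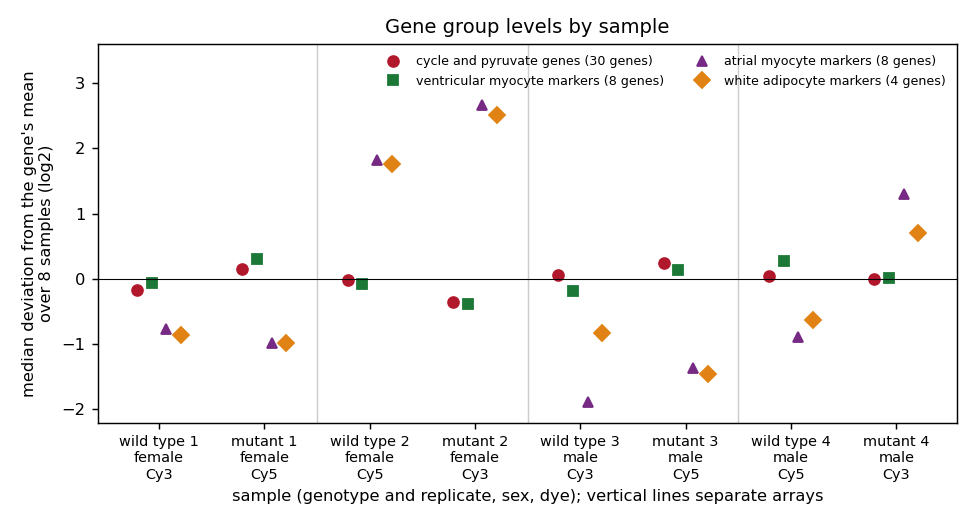
Median deviation from each gene's mean over the 8 hearts (log2, vertical axis) for the 30 genes and for genes listed as markers of ventricular myocytes, atrial myocytes and white adipocytes, in each heart (horizontal axis, with sex and dye). The 30 genes range from -0.35 in mutant 2 to 0.24 in mutant 3, whereas the atrial markers range from -1.89 in wild type 3 to 2.67 in mutant 2.

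Females and males were compared by the difference between the genotype effects of the sexes, fitted in limma with a term for each sex, which left 1 residual degree of freedom. Of the 30 genes 0 passed at an adjusted p of 0.05, against 2031 of 21823 features (9.31%), and 0 passed at an unadjusted p under 0.05, against 16.6% of features. The effect had a median of 0.02 in females and 0.10 in males, and the difference, female minus male, a median of -0.10 beside -0.04 over all features. Within a sex, none of the 30 genes passed, against 0.00916% of features in females and 3.34% in males. The number of features that passed for the difference was 0 under 6 of the alternatives and without array 1, 2 or 3, so the background itself depends on these settings.

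No difference between the sexes was detectable for these genes with 2 pairs a sex. The widest difference was that of Idh2, whose effect was -0.17 (SE 0.21) in females and 0.22 (SE 0.21) in males, a difference of -0.39 (SE 0.30, adjusted p = 0.708). The ratios of the 2 sexes did not overlap for 2 of the 30 genes, against 37.5% of features, and both encode kinases of pyruvate dehydrogenase. Pdk1 was at -0.18 (SE 0.18) in females and 0.10 (SE 0.18) in males, a difference of -0.28 (SE 0.26, adjusted p = 0.797). Pdk2 was at 0.08 (SE 0.19) in females and -0.18 (SE 0.19) in males, a difference of 0.27 (SE 0.26, adjusted p = 0.812). For Cs the difference was 0.19 (SE 0.27, adjusted p = 0.896), with 0.14 (SE 0.19) in females and -0.06 (SE 0.19) in males.

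**Figure D5:**
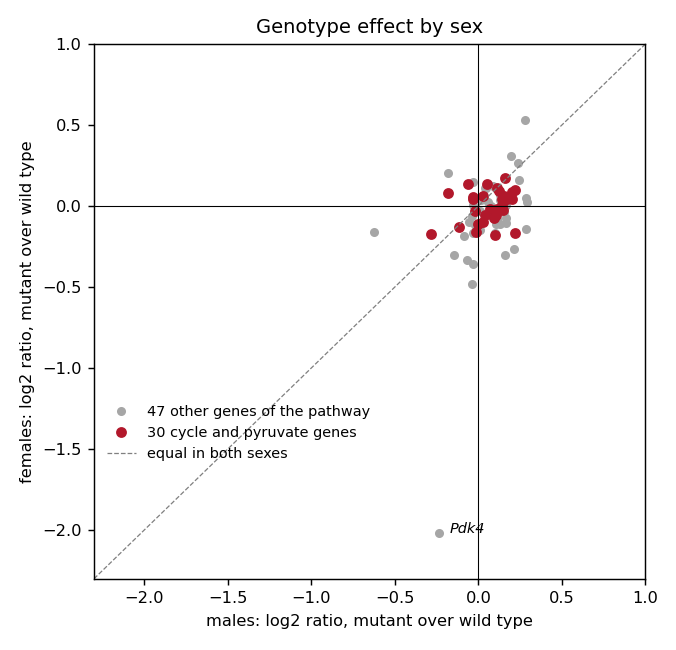
Fitted log2 ratio of mutant over wild type in females (vertical axis, arrays 1 and 2) against that in males (horizontal axis, arrays 3 and 4) for the 30 genes (red) and 47 other genes of the pathway (grey), with the line of equal effects. The 30 genes lie close to the crossing of the axes, and Pdk4, which is not among them, lies apart at -2.01 in females and -0.24 in males.

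For 6 of the 30 genes more than 1 probe was measured, and the probes of a gene did not always give the same ratios. The probes of Dld (means 0.17 and 0.17) and of Pdhb (0.09 and 0.11) lay close together and alternated alike between the female arrays. The second probe of Mpc1 had ratios of 0.33, -0.29, -0.05 and 0.14, so its male ratios did not share the signs of the brightest probe. The 3 probes of Pdp1 had means from 0.01 to 0.31, those of Ogdh from 0.06 to 0.18 and those of Me1 from -0.12 to 0.10, so the sign of Me1 depended on the probe.

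Genes of the same pathway outside the 31 were read from 7 further lists, in which 47 of 52 genes were measured. None of the 47 passed between genotypes, adjusted or at an unadjusted p under 0.05, and 29 had a positive and 18 a negative ratio, with a median of 0.03. The rest of the cycle (aconitases, succinate dehydrogenase and isoforms, 10 genes) had 4 positive ratios and a median of -0.01, with Ogdhl, an isoform of Ogdh, at -0.17, -0.44, -0.16 and -0.13 (mean -0.23, SE 0.11), a mean that was -0.42 with processed signals and -0.41 with the series matrix. The 4 succinate dehydrogenase assembly factors had a median ratio of 0.64 on array 1, -0.58 on array 2, 0.37 on array 3 and -0.02 on array 4, and the ratios alternated in sign over all 4 arrays for 1 of them, Sdhaf4, at 0.88, -0.83, 0.63 and -0.05. The 6 measured genes for the lipoyl cofactor that Dlat, Dlst and related enzymes carry had a median of 0.07, and the 6 genes for other lipoyl dehydrogenases one of -0.06.

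Pdk4, a further pyruvate dehydrogenase kinase, was the gene of these lists with the widest difference. It was put on its list from earlier results of these same data. Its levels were 14.33, 14.83, 13.86 and 15.71 in wild types 1 to 4 and 12.43, 12.71, 13.51 and 15.58 in mutants 1 to 4. Both mutant females were lowest, the 2 male pairs stood far apart from each other, and the groups overlapped. The ratios were -1.90, -2.13, -0.35 and -0.13 (mean -1.13, SE 0.44, unadjusted p = 0.0563, adjusted p = 1.00). The difference between sexes was -1.78 (SE 0.27, adjusted p = 0.00436), with the adjusted p from 0.00241 to 0.622 over the alternatives. The kinases among the 30 genes did not share it: the female effects of Pdk1, Pdk2 and Pdk3 were -0.18, 0.08 and -0.16 beside -2.01 for Pdk4.

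Among genes around the cycle, Acly, the ATP citrate lyase that takes citrate out for lipid synthesis, was the 1 of 47 whose genotypes did not overlap, against 0.744% of features. Its ratios were 0.08, 0.99, 0.25 and 0.30 (mean 0.41, SE 0.15, unadjusted p = 0.0525, adjusted p = 1.00), the mean was 0.24 without array 2, and mutant 2, the heart highest in the adipocyte markers, was highest. Ldha, the lactate dehydrogenase subunit that makes lactate from pyruvate, was at 0.57, 0.06, 0.21 and 0.18 (mean 0.25, SE 0.12). Slc25a22, a mitochondrial glutamate carrier, was at -0.31, -0.65, 0.15 and -0.23 (mean -0.26, SE 0.14).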

How the data were processed

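RNA of 8 hearts was measured on 4 Agilent 2-colour arrays. All 4 arrays lay on 1 slide that the authors scanned once, per the file headers, so no batch of slide or scan could be tested, and the grid was annotated for mouse build mm9. Agilent Feature Extraction 10.7.3.1 is named in the submitters' processing notes. The deposited intensity values used here are each spot's median pixel brightness and that of the surrounding background, as scanned, per the file headers. Processed intensity values, from which Feature Extraction had subtracted background and in which it had normalized the dyes per the file headers, and the log2 values of the series matrix that the authors deposited served as alternatives. In that matrix every probe had a median of 0 over the 8 samples (within 0.01), the column medians were 0.01, 0.00, -0.01 and -0.01 in Cy3 and 0.00, 0.01, 0.06 and -0.02 in Cy5 on arrays 1 to 4, and the Cy5 minus Cy3 difference correlated with processed log2 ratios at 0.991 to 0.998, with slopes between 0.988 and 1.04, which settled scale and direction. Its normalization is not given in the sources used here.

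Of 62976 spots per array, 3671 were controls and the rest held 55681 probes. Background was corrected by normexp with an offset of 50 and each array's ratios were normalized by loess, with a weight of 0 for controls and for non-uniform spots (limma 3.58.1, R 4.3.3). Values of non-uniform spots were dropped after that, and repeated spots averaged. Probes well above background in at least 4 of 8 samples were kept (28528). Accessions were named through RefSeq (GRCm38.p6), which named 27656 probes and left 28025 unnamed, and the brightest probe stood for a gene, giving 21823 features. Ratios were fitted with limma (lmFit, eBayes) with genotype and dye terms, the array being the block, which left 2 residual degrees of freedom, and for the sexes with a genotype term for each sex, which left 1. P-values are 2-sided, adjusted by Benjamini and Hochberg's method across the features, with a threshold of 0.05. Sample levels are the 2 channels of each array, taken apart after loess and Aquantile normalization. The precision is limited by the number of arrays. The fits were also run on simulated data, with noise drawn independently for each feature and array. The measured ratios correlated between arrays over all features, so that run does not show how the fits behave on these data.

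The pairing of samples comes from the labels, which put both on one array. Their deviations from the genotype means correlated at -0.49, -0.11, -0.39 and 0.50 on arrays 1 to 4. The animals are labelled as separate individuals. The members, the lists of further pathway genes and of cell type markers, and the tests were chosen with earlier results of these data known. Per-sample levels are given for the 8 members with the smallest p between genotypes, the 4 with the smallest p for the difference between sexes (none passed), and the brightest member of each role. From a list of further genes up to 3 with the smallest p may be named, and Pdk4 from earlier results. Other marker lists gave median ratios of -0.07 for 5 of 7 brown adipocyte genes, 0.05 for 7 of 7 fibroblast, 0.06 for 6 of 6 endothelial, 0.28 for 4 of 4 smooth muscle, 0.00 for 5 of 6 macrophage, -0.37 for 4 of 5 epicardium, 0.08 for 1 of 6 skeletal muscle and -0.13 for 3 of 6 lymphocyte genes.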

Additional observations from a re-analysis of the deposited data

Results flagged for a closer look

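Each group of 4 hearts was tested for a sample far from the others, for the 30 genes and 21 further pathway genes. Of 102 groups 4 stood out, 3 of them among the 60 groups of the 30 genes, and chance alone gives about 1 in 20. Pdha1 was at 12.41 in wild type 1, with the other wild types between 12.96 and 13.06. Pdk2 was at 13.62 in mutant 4, with the other mutants between 13.87 and 13.92. Pdk3 was at 7.75 in wild type 2, with the other wild types between 7.09 and 7.20. Acly was at 12.12 in mutant 2, with the other mutants between 11.14 and 11.22, and mutant 2 was also the heart with the highest atrial and adipocyte markers, whose part in this value was not tested.

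For Pdk1 both female ratios were negative and both male ratios positive, and the female minus male difference of -0.28 had an adjusted p of 0.797 in limma's fit, so no difference was shown. For Pdk4, listed from earlier results of these same data, the female minus male difference was -1.78 and passed at an adjusted p of 0.00436 (limma). So did 9.31% of features in that fit, which left 1 residual degree of freedom. The ratios of Pdk4 were -1.90 and -2.13 in females and -0.35 and -0.13 in males. The difference kept its direction in all 15 alternatives that gave it but not its call: the adjusted p was from 0.00241 to 0.0134 with no background correction, scale normalization, either other filter on dim probes and the mean over probes, 0.183 with processed signals, 0.159 with the series matrix, 0.0682 with median centring, 0.104 without a dye term, 0.622 without the replicate block, 0.286 with a random block for the array, and 0.0826 to 0.342 when an array was left out.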

How the results depend on the processing

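Of the 30 genes none passed between genotypes under any of the 16 alternatives or between sexes under the 15 that test it, and none had an unadjusted p under 0.05 between genotypes. Their median ratio of 0.03 ran from -0.02 to 0.09 when an array was left out and was 0.15 with median centring, where that of all features was 0.08. A mean ratio kept its sign under every alternative for 5 of the 30 genes (Dlst, Got1, Got2, Pdhx and Pdp2), and 14 changed sign without array 4, 12 without array 1, and 6 each without array 2 or array 3. Pus1 was the 1 feature called between genotypes with median centring, with a sex by genotype term, with a random block for the array and in the unpaired fit with no replicate block, against 0 as reported.

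The count for the difference between sexes was 2031 as reported, 1242 when a probe had to be well above background in all 8 samples, and 0 with processed signals, the series matrix, median centring, no dye term, no replicate block and the array as a random block. It ran from 0 to 1027 when an array was left out, a fit that has no dye term. The median female minus male difference of the 30 genes, -0.10, was -0.55 with median centring and ran from -0.40 to 0.26 without an array. Their median Cy5 over Cy3 ratio, 0.28, was 1.20 with median centring, where all features stood at 0.52, and ran from 0.18 to 0.35 without an array. That alternative set for the dye ratio was chosen after seeing the data. The cause of these changes was not tested. With 4 pairs, the 95% interval of a gene's mean ratio had a median half-width of 0.33.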
